A study of Mus musculus with 8 samples.

Results

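Chemokines are small secreted proteins that call leukocytes into tissue, and fibroblasts are among the cells that release them in liver injury. Here 10 chemokine genes of fibroblasts were looked up in RNA sequencing of hepatic stellate cells, which store vitamin A in the healthy liver and become scar-forming fibroblasts when it is injured. They were chosen by gene symbol, and 1 of the 10, Ccl20, has a row among the 1933 gene rows analysed. Those rows lie on chromosome 1 wherever the annotation used for symbols places them. Ccl2, Ccl5, Ccl7 and Cxcl16 lie on chromosome 11, Cxcl1, Cxcl5 and Cxcl10 on chromosome 5, Cxcl12 on chromosome 6 and Cx3cl1 on chromosome 8, and these 9 were not analysed here. The results therefore describe Ccl20 and say nothing of fibroblast chemokines as a set.

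The cells came from livers of male mice with metabolic dysfunction-associated steatohepatitis (MASH). The 4 KO libraries are labelled AREL1HSC-KO, a loss of AREL1 in hepatic stellate cells, and the 4 fl/fl libraries AREL1fl/fl, the floxed control. Both genotypes ate a Western diet with 21% fat, 20% protein and 50% carbohydrate for 20 weeks from 4 weeks of age, and were analysed in week 24. The sources used here give neither the driver of the deletion nor whether the libraries stem from separate mice. P-values then cover only library-to-library spread, part or all of which may be technical. Beyond counting error, edgeR fitted this spread over the genes tested as a coefficient of variation of 2.53%. Whether so small a spread holds differences between mice was not tested, so small p-values are not evidence across animals. The genotype field of 3 KO samples has another digit in the gene name than their titles, which were followed. Arel1, the deleted gene, was not analysed here and could not serve as a check of the labels. Libraries held 19271004 to 25165289 gene-assigned reads in KO and 17619387 to 19663030 in fl/fl. Unmapped reads made up 1.44% to 1.58% of the KO libraries and 1.04% to 1.19% of the fl/fl libraries, so this share separates the groups. Its part in the results was not tested.

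CCL20 is the CC chemokine that binds the receptor CCR6, and it attracts T helper 17 cells, regulatory T cells, B cells and immature dendritic cells. Its gene is silent or low in most resting cells and is switched on by TNF, IL-1 and IL-17 through the transcription factor NF-kappaB. Among the other genes of the set, CCL2 and CCL7 draw monocytes through CCR2, CCL5 draws T cells, CXCL1 and CXCL5 draw neutrophils, and CXCL10 is an interferon-induced ligand of CXCR3. CXCL12 acts through CXCR4, while CXCL16 and CX3CL1 are made as membrane-bound forms.

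The Ccl20 promoter is shown because NF-kappaB is the best known regulator of this gene. The sequence is from RefSeq (GRCm38.p6, plus strand, chr1:83116516-83116815) and runs from 250 bases before the annotated start of the gene to 50 bases after it. Capitals mark every match on either strand to GGGNNNNNCC, a loose form of the NF-kappaB site. The build of the counted annotation is not settled by the sources used here, which name both GRCm38 and GRCm39, and the coordinates belong to the RefSeq table.
Ccl20 promoter: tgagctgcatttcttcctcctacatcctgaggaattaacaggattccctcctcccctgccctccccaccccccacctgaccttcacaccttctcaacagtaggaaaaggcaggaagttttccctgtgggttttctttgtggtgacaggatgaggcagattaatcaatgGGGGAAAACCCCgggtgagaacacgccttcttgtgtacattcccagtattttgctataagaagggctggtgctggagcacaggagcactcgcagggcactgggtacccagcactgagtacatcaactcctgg
The 4 matches, counted over both strands, overlap and fill 1 stretch of 12 bases, GGGGAAAACCCC, at positions -82 to -71 from the start. Of 32851 mouse promoters of the same length, 50.8% hold a match to this loose motif. The AP-1 motif TGANTCA, searched on both strands, has no match in these 300 bases, and 7.81% of the promoters hold it. A match describes letters and not a bound site.

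Ccl20 RNA was higher in KO stellate cells than in fl/fl cells, at a very low level in both. Reads numbered 36, 25, 20 and 19 in KO replicates 1 to 4, against 3, 2, 4 and 15 in fl/fl replicates 1 to 4. Scaled to counts per 1000000 gene-assigned reads (CPM), with library totals adjusted by the TMM method, Ccl20 stood at 1.47, 0.974, 0.971 and 0.975 CPM in KO replicates 1 to 4 and at 0.154, 0.114, 0.231 and 0.859 CPM in fl/fl replicates 1 to 4. All KO libraries lay above all fl/fl libraries. In KO, 3 libraries lay close together and replicate 1 lay above them. In fl/fl, 3 libraries had 4 reads or fewer, and replicate 4 lay nearer to the KO libraries than to its own group. The mean was 1.10 ± 0.25 CPM in KO and 0.340 ± 0.349 CPM in fl/fl (SD, n = 4 each), so the spread in fl/fl was as large as its mean.

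**Figure D1:**
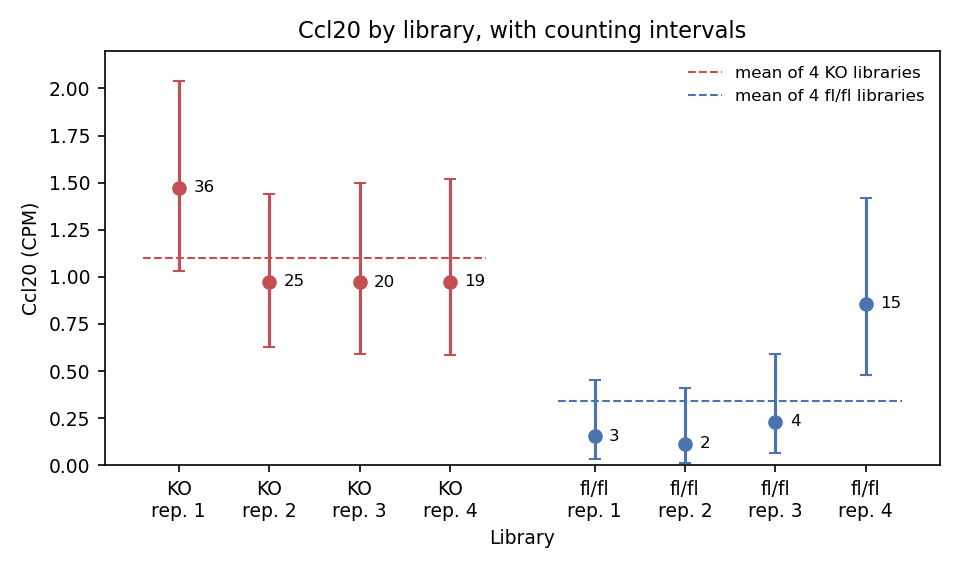
Ccl20 in each library, in CPM (vertical axis), with KO libraries left and fl/fl libraries right; bars are exact 95% Poisson intervals of the reads, which are printed beside the points, and dashed lines are group means. The 4 KO libraries sit between 0.971 and 1.47 CPM and fl/fl replicate 4 at 0.859 CPM, above the other fl/fl libraries at 0.114 to 0.231 CPM.

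Counting error is wide at these numbers. The exact 95% Poisson interval was 0.593 to 1.5 CPM for KO replicate 3, the lowest KO library, and 0.481 to 1.42 CPM for fl/fl replicate 4, the highest fl/fl library, so this pair was not distinguishable by counting alone. The interval of KO replicate 1 was 1.03 to 2.04 CPM, and the intervals of fl/fl replicates 1 to 3 reached at most 0.592 CPM. Summed over libraries, KO had 100 reads (interval 81.4 to 122) and fl/fl had 24 (15.4 to 35.7), or 1.11 CPM in KO and 0.335 CPM in fl/fl when libraries were pooled. These intervals cover counting error only and not the spread between animals or cultures.

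The test across all genes called Ccl20 higher in KO. Its log2 fold change was 1.71 (SE 0.40), a 3.27-fold difference, with an edgeR quasi-likelihood adjusted p of 0.0017. An exact two-sided permutation test on the CPM gave p = 0.0286, the smallest that 4 against 4 libraries allow. With the groups fully apart no other value was possible, so this p only restates that separation. Of the 420 genes tested, 158 (37.6%) were called and 77 (18.3%) were called higher in KO. In 62 genes (14.8%) all KO libraries lay above all fl/fl libraries. With upper-quartile scaling 172 genes were called, 120 of them (69.8%) higher, against 48.7% of the calls with TMM, and with library totals alone 60.6% of the calls were higher. Ccl20 was called higher under each of these scalings. It passed the filter on low counts, about 10 reads in at least 4 libraries, through the KO libraries, since in fl/fl replicate 4 alone had more than 10 reads. A higher level in KO was therefore favoured before the test, and neither p-value of Ccl20 above is free of this selection.

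Ccl20 had the highest log2 fold change of the 420 genes, and the fourth largest standard error. Since it passed the filter on low counts through the KO libraries, a large fold change was favoured. The rank by fold change is therefore no separate support for a difference. Over all genes tested, the log2 fold change had a median of 0.0034 and its standard error a median of 0.049. By adjusted p, Ccl20 ranked 68. At a mean of up to 2 times that of Ccl20, 55 genes were tested and 8 were called, 4 of them higher in KO. The other genes called at least 2-fold higher were Neurl3, a ubiquitin ligase gene, with a log2 fold change of 1.61 (SE 0.15), and the predicted gene Gm29216, with 1.10 (SE 0.35). Both genes are named here with their values already known, and whether their fold changes differ from that of Ccl20 was not tested.

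**Figure D2:**
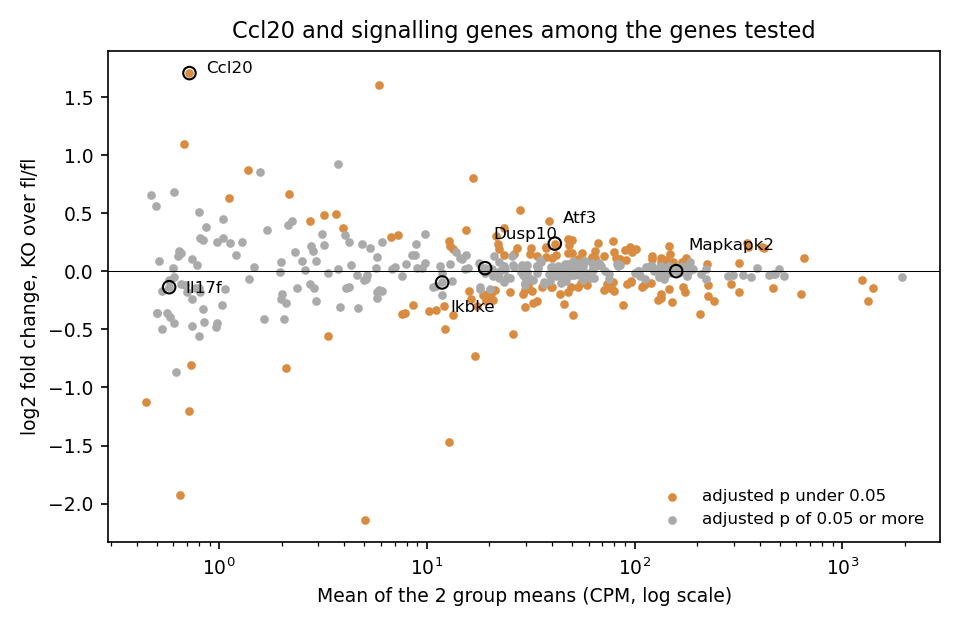
The log2 fold change of KO over fl/fl (vertical axis) against the mean of both group means in CPM (horizontal axis, log scale) for the 420 genes tested, with orange points for adjusted p under 0.05 and circles around Ccl20 and 5 genes of the cytokine and signalling lists. Ccl20 lies at the top, 1.71, and near the low end of the levels, while the other circled genes lie between -0.14 and 0.24.

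The size of the difference rested on fl/fl replicate 4. Without that library the log2 fold change of Ccl20 was 2.69, a 6.47-fold difference (edgeR adjusted p = 1.02e-09), and the fl/fl mean was 0.167 ± 0.0596 CPM (SD, n = 3). That library held 5.16 times the mean of the other fl/fl libraries. Fl/fl replicate 4 is singled out here for its own Ccl20 value, so a smaller p without it is no added support. The edgeR adjusted p also fell in this fit for other called genes, from 4.21e-11 to 6.71e-80 for Dpt, a matrix protein gene described below. Leaving out KO replicate 1 gave a log2 fold change of Ccl20 of 1.52 (edgeR adjusted p = 0.0078). Leaving out both libraries gave 2.51 (edgeR adjusted p = 2.18e-07). With 1 library left out at a time, the log2 fold change ranged from 1.43 to 2.69 and the adjusted p reached at most 0.0129, so the direction and the call were kept in each of these 8 fits. Other scalings, tests, filters and priors gave 1.48 to 2.00, of which the lowest came from a prior count of 2 in place of edgeR's default.

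**Figure D3:**
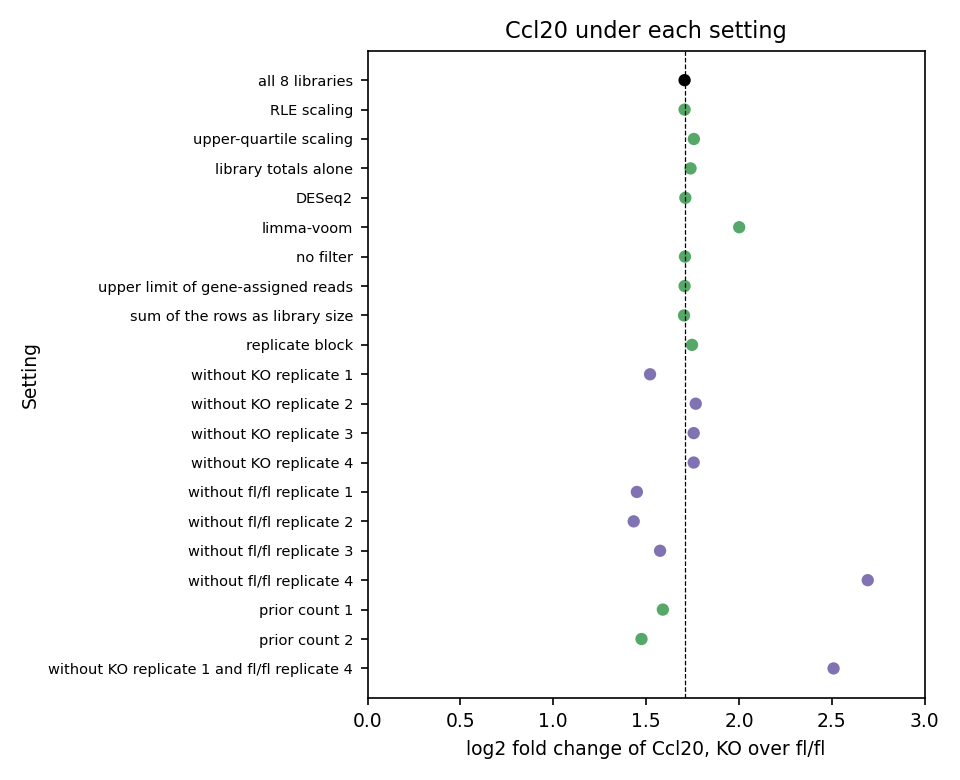
The log2 fold change of Ccl20, KO over fl/fl (horizontal axis), under each setting that could test it: black is the fit of all 8 libraries (1.71, dashed line), green another scaling, test, filter, library size, block or prior count, and purple a fit with libraries left out. The points farthest to the right are the 2 fits without fl/fl replicate 4, at 2.69 and 2.51.

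In the annotation used for symbols no other gene overlaps Ccl20, so its reads are not shared with a neighbour there. Over the 8 libraries 124 reads fell on Ccl20, and 48.4% of them were on the forward strand. KO had 49 forward and 51 reverse reads, and fl/fl had 11 forward and 13 reverse. The even division matches that of all rows, whose ratio of reverse to forward reads was 0.985 to 1.02, although the kit is named as stranded. On either strand alone Ccl20 fell below the filter and was not tested.

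Per length, Ccl20 was among the lower of the genes tested. Over its 1421 bases of annotated exon it reached 0.773 RPKM (CPM per kilobase of exon) in KO and 0.239 RPKM in fl/fl. The median of the 419 tested genes with a known length was 5.27 RPKM in KO and 5.14 RPKM in fl/fl. Counted from the lowest, Ccl20 ranked 81 of 419 in KO and 28 in fl/fl. In these bulk libraries more cells with Ccl20 RNA and more Ccl20 RNA per cell cannot be told apart.

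The protein-coding genes next to Ccl20 among the rows gave no reads or no call. Krtap28-13, A030005K14Rik and Gm47969 on one side, and Daw1 and Sphkap on the other, had 0 reads in all libraries. Pid1, which codes for a regulator of insulin signalling and lies beyond Sphkap, stood at 2.68 ± 0.278 CPM in KO and 3.17 ± 0.796 CPM in fl/fl (SD, n = 4 each; log2 fold change -0.25, SE 0.17, edgeR adjusted p = 0.245). The rows hold part of the chromosome's genes, so nearer genes may not have been analysed here.

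The other chemokine ligands and the chemokine receptors in the rows were at or near 0. Xcl1, which codes for lymphotactin, was the only row among 28 other ligand genes and had 0 reads in the 8 libraries. Of 23 receptor genes 2 were in the rows. Cxcr4, the receptor of CXCL12, had 4 reads over the KO libraries, all in replicates 2 and 4, and 0 over the fl/fl libraries. Ackr3, which codes for the scavenger receptor of CXCL12, had 2 reads in each group. These counts are too low for a comparison, and Ccr6, the receptor of CCL20, was not analysed here.

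Of 55 listed genes of inducing cytokines, related ligands and their receptors, 6 were in the rows, and these were also low. The genes of TNF and IL-1, named above as inducers of Ccl20, were not among the 6. Il17a had 0 reads in the 8 libraries. Il17f, a related inducer of Ccl20, had 17, 8, 8 and 16 reads in KO replicates 1 to 4 and 16, 6, 12 and 9 in fl/fl replicates 1 to 4. The groups overlap, and the log2 fold change of Il17f was -0.14 (SE 0.36, edgeR adjusted p = 0.801). Tnfsf18, which codes for the ligand of the T cell receptor GITR, had 7, 11, 7 and 4 reads in KO replicates 1 to 4 and 1, 2, 0 and 3 in fl/fl replicates 1 to 4. Its KO libraries all lie above its fl/fl libraries, but it did not pass the filter and was not tested. Summed over 4 libraries each, Il10 had 1 read in KO and 0 in fl/fl, Tnfsf4 had 3 reads in KO and 0 in fl/fl, and Fasl had 7 reads in KO and 9 in fl/fl.

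The few tested genes of the cytokine and signalling lists gave calls in both directions. Of the 158 genes in the 4 lists of other ligands, receptors, cytokines and signalling genes, 15 were in the rows and 6 were tested. Of these 6, 1 was called higher and 1 lower, which is near the 37.6% called among all genes tested. The 6 include the cytokine gene Il17f, and so few genes cannot give a share for signalling genes. The median log2 fold change of these 6 was -0.047, against 0.0034 for all genes tested. Atf3, a stress-induced transcription factor, stood at 45.5, 42.7, 44.4 and 46.4 CPM in KO replicates 1 to 4 and at 40.1, 35.7, 33.9 and 41.5 CPM in fl/fl replicates 1 to 4. Its groups do not overlap, and it rose by 18.0% in KO (log2 fold change 0.24, SE 0.052, edgeR adjusted p = 0.000913). As in Ccl20, fl/fl replicate 4 was the highest of its group in Atf3. Atf3 overlaps Gm24748 in the annotation, so its counts are uncertain without strand.

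No call was made for the kinases and the phosphatase of the signalling list. Ikbke, which codes for an IkappaB kinase-related kinase, stood at 11.4 ± 0.564 CPM in KO and 12.2 ± 0.526 CPM in fl/fl (SD, n = 4 each; log2 fold change -0.096, SE 0.073, edgeR adjusted p = 0.318). Mapkapk2, the p38 target kinase that stabilises inflammatory transcripts, stood at 158.6 ± 5.01 CPM in KO and 158.4 ± 2.33 CPM in fl/fl (log2 fold change 0.0018, SE 0.028). Dusp10, a phosphatase of p38 and JNK, stood at 19.2 ± 0.661 CPM in KO and 18.9 ± 0.664 CPM in fl/fl (log2 fold change 0.027, SE 0.057). Each of these 3 genes overlaps another gene in the annotation, which makes their counts uncertain without strand. The genes of NF-kappaB itself were not analysed here.

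The genes whose levels most resembled Ccl20 over the 8 libraries were taken from 321 genes with a mean of at least 5 CPM, by Pearson correlation of log2(CPM + 0.1). Among them were Nrp2, a co-receptor of VEGF and semaphorins (r = 0.978), and Abl2, a tyrosine kinase (r = 0.964). The points share libraries, scaling and the difference between the groups, and 29 of the 321 genes had an r above 0.9, so these values describe likeness only.

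Abl2 stood at 165.2, 153.6, 156.0 and 152.6 CPM in KO replicates 1 to 4 and at 132.2, 128.8, 133.1 and 144.1 CPM in fl/fl replicates 1 to 4. Its groups do not overlap, and it rose by 16.6% (log2 fold change 0.22, SE 0.033, edgeR adjusted p = 7.47e-06). Nrp2 stood at 112.0, 108.4, 108.2 and 104.9 CPM in KO replicates 1 to 4 and at 90.3, 91.9, 91.2 and 105.9 CPM in fl/fl replicates 1 to 4. It rose by 14.4% (log2 fold change 0.19, SE 0.040, edgeR adjusted p = 0.000809), and its groups overlap, since fl/fl replicate 4 lay above KO replicate 4. In both genes, as in Ccl20, KO replicate 1 was the highest KO library and fl/fl replicate 4 the highest fl/fl library. Each was chosen for its likeness to Ccl20, which was higher in KO, so its direction and its highest libraries add nothing to those of Ccl20. Both overlap other genes in the annotation, which makes their counts uncertain without strand.

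**Figure D4:**
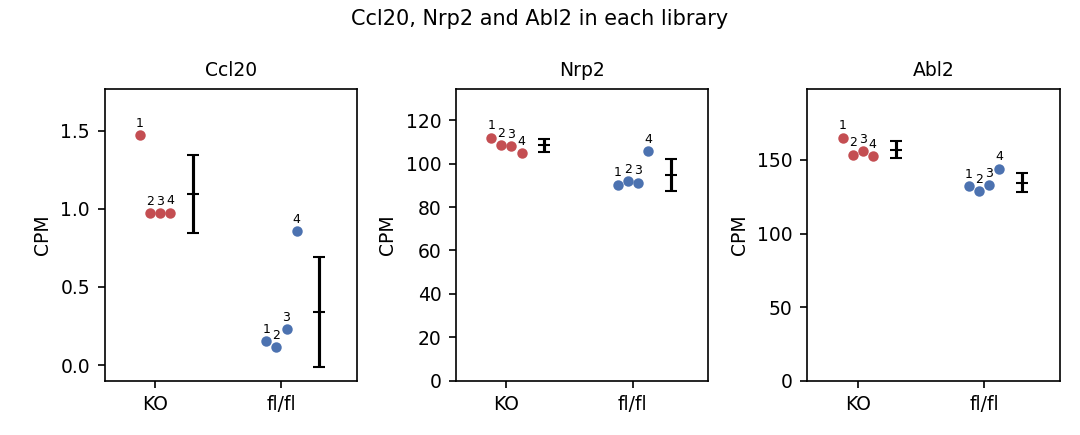
CPM (vertical axes, from 0 except in the first panel, which extends below 0 for its error bar) of Ccl20, Nrp2 and Abl2, with KO left and fl/fl right; points are libraries marked with their replicate number, and the black bars are mean ± SD (n = 4). In every panel fl/fl replicate 4 is the highest of the fl/fl libraries, at 0.859 CPM for Ccl20 and 105.9 CPM for Nrp2. Nrp2 and Abl2 were chosen for their likeness to Ccl20 over these libraries.

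Leukocytes and bile duct cells can also make CCL20, and few of their markers were in the rows. The 8 of 42 leukocyte markers present summed to 3.34 to 4.05 CPM in KO and 3.19 to 3.95 CPM in fl/fl, nearly all of it from Batf3, a gene of dendritic cells. Without Batf3 the sum was 0.164 to 0.462 CPM in KO and 0.285 to 0.669 CPM in fl/fl, and Ctla4 and Cd55 were at 0. These sums overlap between the groups. The 1 of 15 bile duct markers present, Pkhd1, had 0 reads in KO and 1 in fl/fl. Of 17 endothelial markers 2 were present, Cd34 and Prox1, and they summed to 83.5 to 87.3 CPM in KO and 79.4 to 86.2 CPM in fl/fl, nearly all of it from Cd34, which fibroblasts also make.

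Hepatocyte markers separated the groups through a single gene. The 6 of 22 present summed to 2.05 to 2.77 CPM in KO and 6.12 to 9.83 CPM in fl/fl. Aox1, an aldehyde oxidase gene, stood at 2.09, 2.07, 1.70 and 1.49 CPM in KO replicates 1 to 4 and at 9.37, 8.89, 8.79 and 5.78 CPM in fl/fl replicates 1 to 4, and it fell by 77.3% in KO (log2 fold change -2.14, SE 0.16, edgeR adjusted p = 3.23e-10). The hepatocyte markers other than Aox1 summed to 0.286 to 0.701 CPM in KO and 0.343 to 0.627 CPM in fl/fl, and 3 of the 6 were at 0, C4bp and Pigr among them.

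All 4 of the stellate cell and fibroblast markers in the rows, of 24 listed, fell in KO, where 19.3% of all genes tested were called lower. Dpt, which codes for the matrix protein dermatopontin, stood at 6.67, 6.86, 6.70 and 6.82 CPM in KO replicates 1 to 4 and at 19.4, 20.4, 20.6 and 14.7 CPM in fl/fl replicates 1 to 4. It fell by 63.9% (log2 fold change -1.47, SE 0.094, edgeR adjusted p = 4.21e-11). Col6a3, a chain of collagen VI, stood at 13.0, 12.5, 12.9 and 12.8 CPM in KO replicates 1 to 4 and at 22.3, 22.9, 22.8 and 16.8 CPM in fl/fl replicates 1 to 4. It fell by 39.7% (log2 fold change -0.73, SE 0.079, edgeR adjusted p = 1.03e-07). In Dpt, Col6a3 and Aox1 the groups do not overlap, and fl/fl replicate 4, the fl/fl library nearest to KO in Ccl20, was also the fl/fl library nearest to KO. The more abundant fibrillar collagen genes fell by smaller shares. Col5a2 fell by 12.4%, to 589.5 ± 5.01 CPM in KO, against 673.0 ± 6.82 CPM in fl/fl (SD, n = 4 each, edgeR adjusted p = 2.56e-08). Col3a1 fell by 9.52%, to 439.1 ± 0.801 CPM in KO, against 485.2 ± 16.3 CPM in fl/fl (edgeR adjusted p = 2.04e-05). Each of the 4 genes overlaps another gene in the annotation. Stellate cell genes such as Lrat, Reln and Des were not analysed here, so the labelled cell type was not checked on them. The part of other cells in the difference of Ccl20 was not tested.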

How the data were processed

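Hepatic stellate cells from 4 KO and 4 fl/fl samples were isolated by density gradient and sequenced from a stranded mRNA kit, per the labels' protocols. The authors deposited 1 table of read counts per gene and library in the STAR layout, and STAR 2.7.10a, fastp, DESeq2 1.38.0 and the builds GRCm38 and GRCm39 are named in the submitters' processing notes. Tables held 1933 to 1943 rows as used here, an incomplete last line was left out, and 1933 shared rows were analysed, of which 1830 had a GENCODE M21 symbol. The rows hold 3.20% to 3.28% of the gene-assigned reads, so library totals were derived as a lower limit from the summary lines (upper limit 2.51% to 2.65% higher). Either-strand counts were used.

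Counts were tested in R 4.3.3 with edgeR 4.0.16 (filterByExpr, TMM, robust quasi-likelihood test, default prior count) and Benjamini-Hochberg adjustment over 420 genes, with a threshold of 0.05. The SE of a log2 fold change came from its F statistic. Alternatives used DESeq2 1.42.0, limma 3.58.1, other scalings, filters, library sizes, strand columns, a replicate block and left-out libraries. The code was tested on simulated data. Poisson intervals (95%) and permutation tests used SciPy 1.17.1. Named genes were every chemokine gene with a row, the listed signalling genes, the 5 genes most like Ccl20 and the highest marker of each list, of which some genes are not reported here. Dpt, Col6a3 and Col3a1 lie outside this rule and were named after their values were seen. Members, lists and tests were chosen with earlier results of these data known, and leaving out 2 libraries together was added after seeing the values.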

Additional observations from a re-analysis of the deposited data

Results flagged for a closer look

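Dixon's test at the 95% level was used within each genotype to look for libraries that stand apart. It picks about 1 in 20 groups by chance, or 1.5 of the 30 looked at, which are not independent. In all, 7 values were picked out, several of them from the same library, fl/fl replicate 4. Ccl20 was picked out in both groups, with 1.473 CPM in KO replicate 1, where the rest of KO had 0.971 to 0.9747, and with 0.8585 CPM in fl/fl replicate 4, where the rest of fl/fl had 0.114 to 0.2313. The counting interval of KO replicate 1, 1.03 to 2.04 CPM, overlaps that of each other KO library, such as 0.63 to 1.44 CPM for KO replicate 2. Fl/fl replicate 4 also had 105.9 CPM of Nrp2, where the rest had 90.26 to 91.93. This library had 16.83 CPM of Col6a3, where the rest had 22.28 to 22.86, and 5.781 CPM of Aox1, where the rest had 8.788 to 9.365. Nrp2 was chosen for its likeness to Ccl20, so its pick adds nothing to that of Ccl20. In KO replicate 3, Ikbke stood at 10.58 CPM against 11.65 to 11.8. The library total of fl/fl replicate 1 was 19663030 reads against 17619387 to 17642249.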

How the results depend on the processing

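Ccl20 kept its direction and its call under all 20 alternatives that could test it, with edgeR, DESeq2 or limma adjusted p between 1.02e-09 and 0.0129. Not all of these could change the call. Prior counts of 1 and 2 act on the fold change alone and left the edgeR adjusted p at 0.0017. The upper limit of gene-assigned reads left both the fold change and the adjusted p as they were. The alternatives with at least 1 CPM in 4 libraries and with forward-strand or reverse-strand counts left Ccl20 below the filter and gave no value for it. The exact permutation p was 0.0286 on CPM and on log2(CPM + 0.1). The log scale keeps the order of the libraries, so with the groups fully apart p was fixed in advance on either scale. The number of called genes stayed between 108 (adjusted p under 0.01) and 191 (without fl/fl replicate 4), against 158. The calls of Atf3, Nrp2, Abl2, Dpt, Col6a3, Col5a2, Col3a1 and Aox1 kept their direction and held under all 22 alternatives run for them.

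With the replicate block, the log2 fold change of Ccl20 was 1.75 (adjusted p = 0.00356) and 150 genes were called. Same-numbered KO and fl/fl libraries had correlations of deviations of -0.163, 0.13, -0.11 and -0.0401. No KO library correlated best with the fl/fl library of its own number. These correlations showed no pairing by number and cannot exclude one.

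The reads of Ccl20 limit its precision, and a difference within either group cannot be resolved below the width of the counting intervals.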
